A study of Homo sapiens with 6 samples.

Results

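To describe how the replicative DNA polymerases responded to GDPD5 knockdown, 10 genes were taken from the 79302 genes of the deposited count table. They encode subunits of polymerase alpha, primase, polymerase delta and polymerase epsilon. The symbols given were POLA1, POLA2, PRIM1, PRIM2, POLD1, POLD2, POLD3, POLE, POLE2 and POLE3. POLD4 and POLE4, further subunits of polymerases delta and epsilon, were not among the 10 and are described below as comparisons. All 10 were found once by their Ensembl identifiers. All 10 passed the filter on low counts, which left 16755 genes for testing. The libraries came from HCT116, a colorectal cancer line of human origin, and were 3 with a control hairpin (shCtrl) and 3 with knockdown of GDPD5, a glycerophosphodiester phosphodiesterase gene, by a short hairpin RNA (shGDPD5). Both groups are presented in the paper as a radioresistant derivative of HCT116, sampled 6 h after irradiation with 4 Gy, whereas the labels state the line and the shRNA without resistance, dose or time. The sources used here do not say which of the 2 shRNAs was sequenced, whether the resistant line is 1 clone, or whether replicates were grown as separate cultures. The p-values therefore measure the spread between these libraries, which may be technical.

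Copying of nuclear DNA needs 3 polymerases with separate tasks. Polymerase alpha, bound to primase, lays down a short RNA and DNA primer, after which polymerase epsilon extends the leading strand and polymerase delta the lagging strand. Each enzyme is a complex of a catalytic subunit and accessory subunits, and in dividing cells the genes of many of these subunits are transcribed at the start of S phase under E2F factors.

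Library totals lay between 16715447 and 18510670 counts. GDPD5 was at 8.33, 11.6 and 9.75 normalized CPM (counts scaled to the library's total) in the shCtrl libraries and at 5.44, 5.55 and 5.19 CPM in the shGDPD5 libraries, so 54.5% of its transcript was left (log2 fold change -0.88, standard error 0.13, adjusted p = 0.000116 from edgeR). The epithelial markers EPCAM, KRT8, KRT18 and CDH1 were present in every library, from 121.2 CPM for CDH1 to 1258 CPM for KRT8, although EPCAM, KRT18 and CDH1 lay lower in every shGDPD5 library than in any shCtrl library. The 13 mitochondrially encoded genes took 8.99% to 9.34% of shCtrl counts and 10.05% to 10.7% of shGDPD5 counts, and without them all 10 subunits described below were still higher by the same test. Whether the lower epithelial markers have a part in the polymerase results was not tested. The leukocyte genes PTPRC and CD3E and the endothelial gene PECAM1 reached at most 0.113 CPM, and of 3 fibroblast genes COL1A2 was at 0, PDGFRB at most at 0.338 CPM and COL1A1 between 18.8 and 23.5 CPM. shCtrl replicate 1 stood apart from the other shCtrl libraries, since the chi-square of its counts per degree of freedom was 6.14 and 7.13 against them and 1.66 between that pair. Among the shGDPD5 libraries replicate 2 stood apart, with 3.35 and 2.965 against 1.68 between the other pair.

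All 10 subunit transcripts were higher in the shGDPD5 libraries. Each passed an adjusted p of 0.05 in the quasi-likelihood test of edgeR, against 29.7% of all tested genes in that direction, and none was lower. The 10 were chosen with earlier results of these data known and are not every subunit of these enzymes. Outside them, POLD4 was lower (log2 fold change -1.45) and POLE4 did not pass (-0.19). The log2 fold changes of the 10 ran from 0.26 for POLD2 to 1.70 for POLA2. Their median was 1.23, beside 0.0098 for all tested genes. A fold of at least 2 (a log2 fold change of at least 1) was reached by 7 of the 10, against 5.34% of all tested genes. With an unadjusted p under 0.05 from edgeR and this fold, the count was also 7 of the 10, against 5.38%. The study states these thresholds with the p from a t test, so these are not the study's own calls. With the study's other fold threshold, over 1.5 (added after the data were seen), and the same edgeR p, POLD3 and POLE3 passed as well. This made 9 of the 10, against 13.6%. Values of the 3 shCtrl and the 3 shGDPD5 libraries did not overlap for any of the 10, where 32.6% of tested genes were separated in the higher direction. Added over the 10 genes, the level went from 255.1 ± 6.42 CPM (SD, n = 3) to 509.7 ± 3.76 CPM (SD, n = 3), a ratio of 2.00. In bulk RNA a larger share of cells transcribing a gene and more RNA per cell cannot be told apart.

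**Figure D1:**
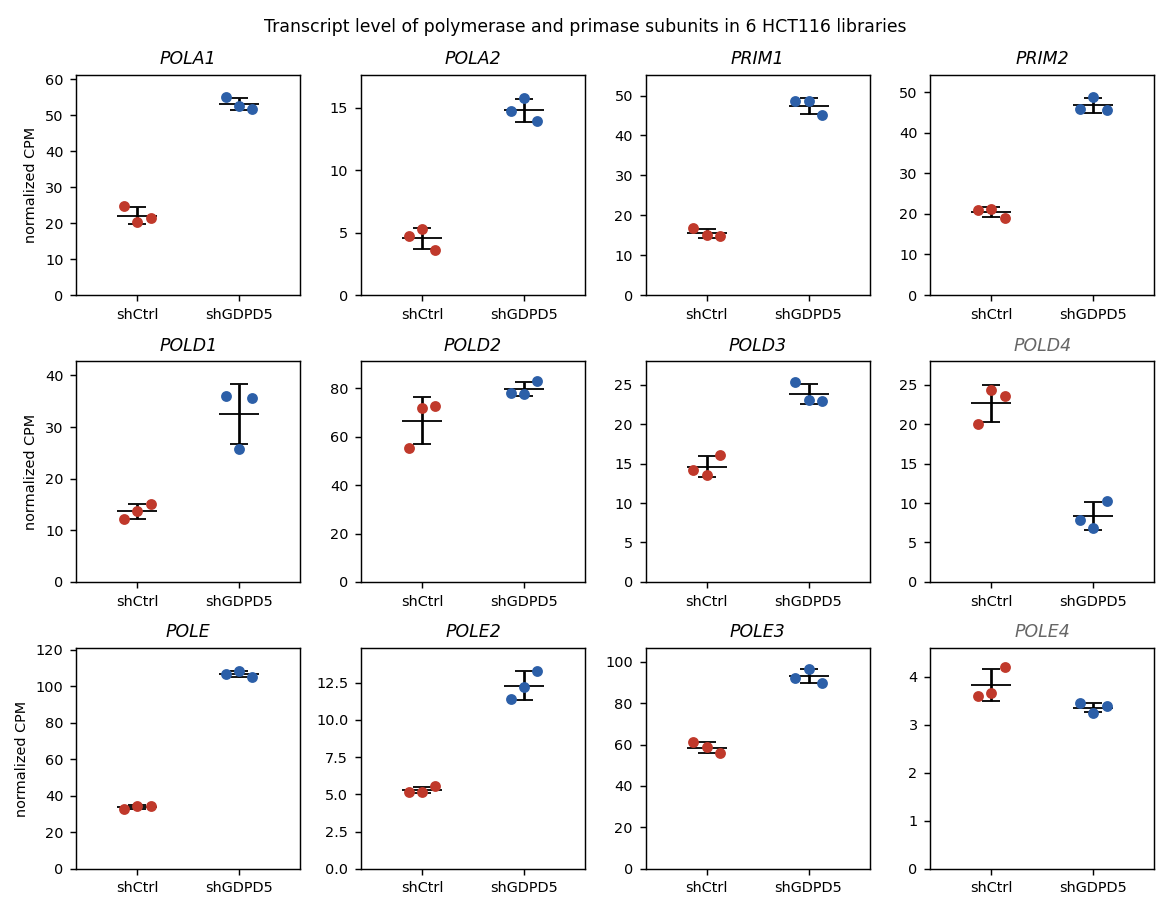
Level in normalized CPM (y axes, all from 0) of 12 polymerase and primase subunits in the 6 libraries, one point each (shCtrl red, shGDPD5 blue), with the group mean and SD in black. The 10 genes with black titles lie higher in every shGDPD5 library, most narrowly for POLD2, while POLD4 falls and POLE4 lies slightly lower (grey titles).

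To place the genes beside the sequences at their starts, RefSeq promoter windows of GRCh38.p14, from 250 bases before to 50 bases after a transcription start, were searched on both strands. Windows were given for 9 of the 10 genes, 13 windows in all, and none for POLD3. The core of the E2F site was searched as TTCCCGC, as TTCGCGC, as TTGCCGC and as TTGGCGC. It was present at 6 of the 9 genes, POLA1, POLA2, PRIM1, POLE, POLE2 and POLE3, against 15.3% of the 27305 genes in the table. With the 250 bases before the start alone it was present at 4 of the 9 (POLA1, POLA2, PRIM1 and POLE) against 12.97% of genes. These matches are shown because E2F factors are known regulators of these genes, each in 30 bases read 5′ to 3′ along the gene's strand, with capitals marking the core, which is GCGGGAA or GCGCCAA where it lies on the opposite strand.
POLA1, chrX:24693778-24693807, plus strand: aggGCGCCAAacgcgcgtccGCGGGAAggc
POLA1, chrX:24693923-24693952, plus strand: ttttgggctggTTGGCGCggaatcgggaga
POLA2, chr11:65261899-65261928, plus strand: tggctcccggtTTCGCGCatgcgtgcactg
PRIM1, chr12:56752329-56752358, minus strand: cggccgtgctgTTCCCGCcaattcctgtgg
POLE, chr12:132687437-132687466, minus strand: gccgggcgccgGCGCCAAttggagcgcctc
POLE, chr12:132687342-132687371, minus strand: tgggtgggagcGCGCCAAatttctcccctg
POLE2, chr14:49688201-49688230, minus strand: ctgcggcggtgGCGCCAAatcgcaaatatg
POLE3, chr9:113410343-113410372, minus strand: accgtagcgacGCGGGAAgtccggacgcag

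POLA1 held 3 matches, at 137 and 120 bases before its start and 17 bases after it, and POLE held 2, at 113 and 18 bases before. The other matches began 52 bases before the start in POLA2, 24 before in PRIM1, 5 before in POLE2 and 14 after in 1 of the 3 windows of POLE3. In PRIM1 and POLE the E2F core shares bases with a CCAAT box, the site of the factor NF-Y. The CCAAT box was present at 4 of the 9 genes (POLA1, POLD2, POLE and PRIM1), against 39.7% of all genes. The letters TTTGAA, the core of the cell cycle homology region bound by the DREAM complex, were present at 1 of the 9 genes (POLE3), against 18.2% of all genes. No E2F core was found in these windows of PRIM2, POLD1 and POLD2, whose log2 fold changes were 1.20, 1.25 and 0.26, so genes with and without the letters were both among those that rose by more than 1 on that scale. Windows of the 9 genes with an E2F match held 64.3% to 73.7% G and C, and those without held 38.3% to 74.7%. The median over all windows was 58.7%. Whether base composition has a part in the share with E2F letters was not tested. A match of letters is a description and no evidence that a factor binds there.

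**Figure D2:**
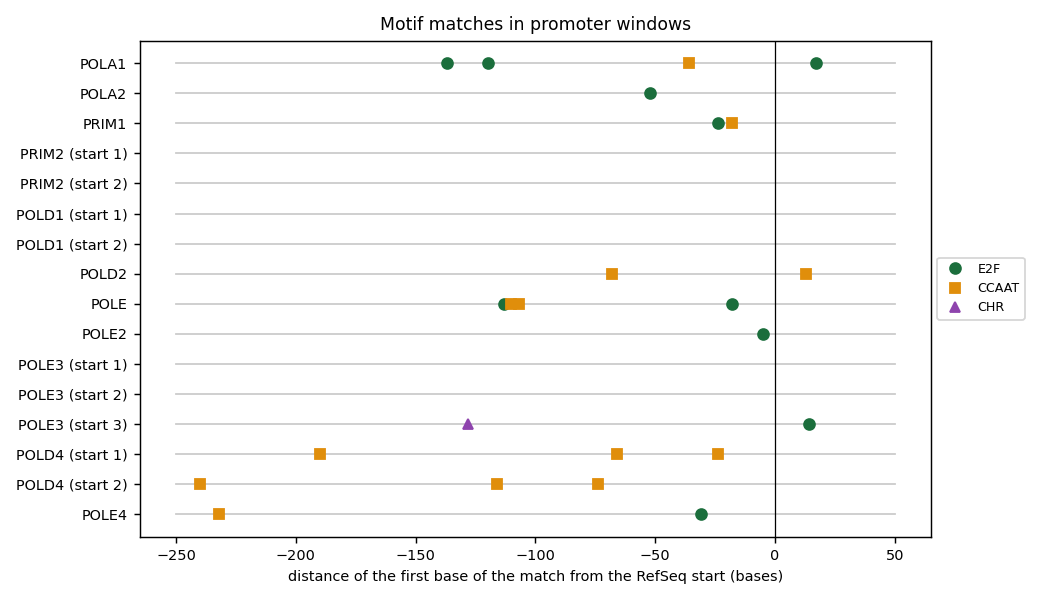
Distance in bases from the RefSeq start (x axis) of matches to the E2F core (circles), the CCAAT box (squares) and TTTGAA, labelled CHR (triangles), in each promoter window (y axis). Grey lines are the windows searched. The E2F matches of POLA1, POLA2, PRIM1, POLE, POLE2 and POLE3 lie between 137 bases before and 17 bases after the start, and windows of PRIM2, POLD1 and POLD2 hold none.

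Polymerase alpha and primase, which start every new strand, rose in all 4 subunits. POLA1 (ENSG00000101868, chromosome X from 24693919 to 24996986, plus strand, GENCODE release 29 on GRCh38) encodes the catalytic subunit of polymerase alpha. Its normalized level was 24.7, 20.2 and 21.4 CPM in the shCtrl libraries and 55.0, 52.5 and 51.7 CPM in the shGDPD5 libraries. The lowest shGDPD5 library was thus more than 2 times the highest shCtrl library, and the fold change was 2.40 (log2 1.26, standard error 0.07, 95% interval 1.10 to 1.43, adjusted p = 2.34e-08 from edgeR).

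POLA2 (ENSG00000014138, chromosome 11 from 65261762 to 65305589, plus strand), the accessory subunit that ties polymerase alpha to the replisome, had the largest log2 fold change of the 10 genes. Only 81, 94 and 63 counts were found in the shCtrl libraries, against 252, 295 and 247 in the shGDPD5 libraries, which corresponds to 4.72, 5.30 and 3.63 CPM against 14.7, 15.7 and 13.9 CPM. The groups lay far apart, and the log2 fold change was 1.70 (standard error 0.13, 95% interval 1.42 to 1.98, adjusted p = 2.52e-07 from edgeR), above that of 98.8% of tested genes. An overlapping protein-coding gene on the same strand (AP000944.2) took 97 to 134 counts in the shCtrl and 106 to 211 in the shGDPD5 libraries, so reads of POLA2 could have been divided between both.

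PRIM1 (ENSG00000198056, chromosome 12 from 56731596 to 56752373, minus strand), the primase subunit that synthesizes the RNA primer, was at 16.7, 15.01 and 14.7 CPM in the shCtrl libraries and 48.6, 48.5 and 45.1 CPM in the shGDPD5 libraries. This was a 3.06-fold rise (log2 1.61, standard error 0.07, adjusted p = 1.75e-09 from edgeR) with little spread in either group. PRIM1 overlaps NACA, a nascent polypeptide chaperone gene with far more reads, on its own strand. NACA had 10296 to 11007 counts in the shCtrl and 7939 to 9224 in the shGDPD5 libraries and so lay the other way. Whether reads of NACA have a part in the values of PRIM1 was not tested. PRIM2 (ENSG00000146143, chromosome 6 from 57314805 to 57646849, plus strand), the large primase subunit with an iron-sulfur cluster, was at 20.9, 21.3 and 18.97 CPM against 45.9, 48.8 and 45.6 CPM. Its fold change was 2.29 (log2 1.20, standard error 0.07, adjusted p = 1.38e-08 from edgeR), and its similar copy PRIM2BP held at most 1 count.

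Polymerase delta, the lagging strand enzyme, rose in POLD1, POLD2 and POLD3, with log2 fold changes from 0.26 to 1.25. POLD1 (ENSG00000062822, chromosome 19 from 50384204 to 50418016, plus strand), the catalytic and proofreading subunit, was at 12.2, 13.7 and 15.2 CPM in the shCtrl libraries and at 35.9, 25.8 and 35.7 CPM in the shGDPD5 libraries. shGDPD5 replicate 2 lay below the other shGDPD5 libraries yet above every shCtrl library. The log2 fold change was 1.25 (standard error 0.13, 95% interval 0.97 to 1.52, adjusted p = 3.28e-06 from edgeR), and it was 1.38 without that library.

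POLD2 (ENSG00000106628, chromosome 7 from 44114681 to 44124358, minus strand), the accessory subunit that joins POLD1 to the others, moved least. Its level was 55.4, 72.0 and 72.6 CPM in the shCtrl libraries and 78.0, 77.8 and 83.0 CPM in the shGDPD5 libraries, with shCtrl replicate 1 well below the rest. The log2 fold change of 0.26 (standard error 0.09, 95% interval 0.07 to 0.44, adjusted p = 0.0231 from edgeR) fell to 0.13 (adjusted p = 0.0171 from edgeR) without shCtrl replicate 1. It did not pass without shGDPD5 replicate 3 (0.22, adjusted p = 0.0848 from edgeR) or when each gene was tested alone on log2(CPM + 1), without shared variance (adjusted p = 0.169), so the call for POLD2 depends on single libraries and on the test.

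POLD3 (ENSG00000077514, chromosome 11 from 74493851 to 74669117, plus strand), which binds the PCNA clamp and also serves break-induced replication, was at 14.2, 13.6 and 16.1 CPM against 25.3, 23.1 and 23.0 CPM. The fold change was 1.63 (log2 0.70, standard error 0.09, adjusted p = 1.62e-05 from edgeR), smaller than that of POLD1. A non-coding gene that overlaps POLD3 on its strand (LIPT2-AS1) had 67 to 117 counts per library.

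The 4th subunit of polymerase delta went against the others. POLD4 (ENSG00000175482, chromosome 11 from 67350777 to 67356972, minus strand), the smallest subunit, whose protein is known to be degraded after DNA damage, was not among the 10 genes and was taken as a comparison. It was at 20.0, 24.4 and 23.5 CPM in the shCtrl libraries and 7.83, 6.83 and 10.3 CPM in the shGDPD5 libraries. Each shGDPD5 library held less than any shCtrl library, 36.7% of the transcript was left (log2 fold change -1.45, standard error 0.13, 95% interval -1.74 to -1.16, adjusted p = 1.29e-06 from edgeR), and 3.00% of tested genes had a lower log2 fold change. A called log2 fold change of -1 or lower was found in 6.57% of tested genes, 30.1% passed in the lower direction with no threshold on the fold, and 32.4% had groups separated in that direction. POLD4 overlaps RAD9A on the other strand, with 176 to 206 counts in the shCtrl and 241 to 258 in the shGDPD5 libraries. On its own strand it overlaps AP003419.1, with 48 to 83 and 25 to 62 counts. The sources do not say whether reads were counted by strand. The 2 RefSeq windows of POLD4 (67353547 to 67353846 and 67353497 to 67353796) overlap and lie within the gene's span given above. They held no E2F core and share the same 3 CCAAT boxes.

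Polymerase epsilon, the leading strand enzyme, rose most in its catalytic subunit. POLE (ENSG00000177084, chromosome 12 from 132623753 to 132687365, minus strand) was at 32.7, 34.4 and 34.2 CPM in the shCtrl libraries and 106.5, 108.0 and 105.0 CPM in the shGDPD5 libraries. The coefficient of variation was 2.73% and 1.42% in these groups, the smallest among the 10 genes in each group. The fold change was 3.15 (log2 1.66, standard error 0.05, 95% interval 1.54 to 1.77, adjusted p = 1.03e-10 from edgeR).

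POLE2 (ENSG00000100479, chromosome 14 from 49643555 to 49688422, minus strand), the accessory subunit that contacts the replicative helicase, was a low transcript, with 89, 92 and 96 counts in the shCtrl and 195, 229 and 236 in the shGDPD5 libraries. This was 5.18, 5.19 and 5.54 CPM against 11.4, 12.2 and 13.3 CPM, a fold change of 2.32 (log2 1.21, standard error 0.11, adjusted p = 1.05e-06 from edgeR). Despite the low counts the groups were well separated.

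POLE3 (ENSG00000148229, chromosome 9 from 113407235 to 113410672, minus strand) encodes a histone-fold subunit that also belongs to the chromatin accessibility complex. Its level of 61.0, 58.6 and 55.9 CPM in the shCtrl libraries compared with 92.3, 96.6 and 89.9 CPM in the shGDPD5 libraries. The fold change was 1.59 (log2 0.67, standard error 0.05, 95% interval 0.55 to 0.79, adjusted p = 4.47e-07 from edgeR), about as small as that of POLD3.

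POLE4 (ENSG00000115350, chromosome 2 from 74958492 to 74970128, plus strand), the histone-fold partner of POLE3 and the other comparison subunit, was at 3.61, 3.67 and 4.21 CPM against 3.45, 3.26 and 3.38 CPM. The ranges did not overlap, but the log2 fold change of -0.19 (standard error 0.15, 95% interval -0.51 to 0.14) did not pass (adjusted p = 0.297 from edgeR), and a change of this size was not detectable at 59 to 73 counts per library. Its window held 1 E2F core, which is shown because the gene carries the letters without a called rise.
POLE4, chr2:74958601-74958630, plus strand: ctccagcccgcGCGGGAAagggcctgcgcc

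**Figure D3:**
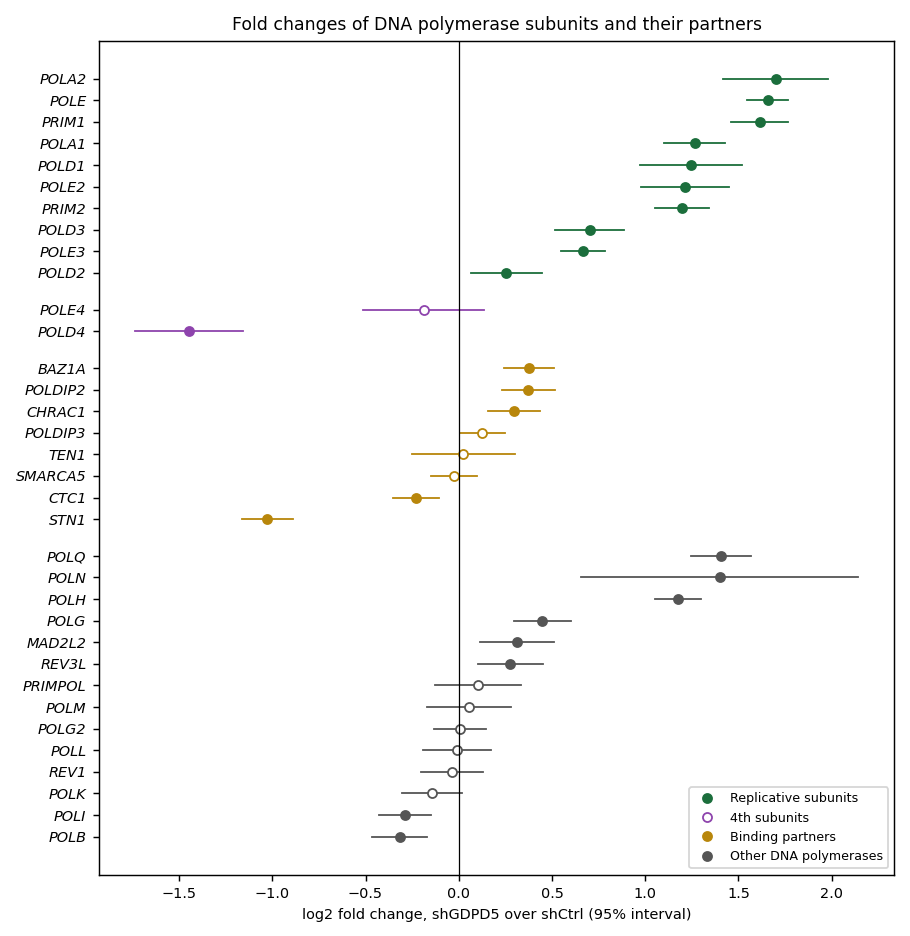
Log2 fold change with its 95% interval (x axis, shGDPD5 over shCtrl) for the 10 replicative subunits, POLD4 and POLE4 (labelled 4th subunits), 8 binding partners and 14 other DNA polymerases and associated proteins (y axis). Filled points passed an adjusted p of 0.05 from edgeR and open points did not. The 10 subunits all lie to the right of 0, whereas POLD4 at -1.45 and STN1 at -1.03 lie farthest to the left.

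Because the subunits of a complex work together, each accessory subunit was set against the catalytic subunit within the same library, a log2 ratio of normalized CPM that does not depend on scaling between libraries. Of 9 ratios, 8 had groups that did not overlap. Single genes were separated in 32.6% of cases upward and 32.4% downward, and the share for ratios of other gene pairs was not computed, so this count says nothing particular about these complexes. The smallest p that 3 against 3 libraries can give in a two-sided exact permutation test is 0.1, which each of the 8 reached (adjusted p = 0.113 over the 9), so none could pass 0.05. Within polymerase alpha, the ratio POLA2/POLA1 went from a mean of -2.28 to -1.84 and PRIM1/POLA1 from -0.51 to -0.16, differences of 0.44 and 0.35 on the log2 scale. The groups of POLA2/POLA1 nearly touched, with -1.92 in the highest shCtrl and -1.90 in the lowest shGDPD5 library, and its difference was 0.31 without shCtrl replicate 3 and 0.62 without shCtrl replicate 2. PRIM2/POLA1 overlapped between the groups, with a difference of -0.07 (exact permutation p = 0.6) that was 0.024 without shCtrl replicate 2.

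In polymerases delta and epsilon all 3 shGDPD5 libraries lay below the 3 shCtrl libraries for each of the 6 ratios. The difference was -0.97 for POLD2/POLD1 and -0.53 for POLD3/POLD1 on the log2 scale. The largest was that of POLD4/POLD1, from a mean of 0.73 in the shCtrl to -1.97 in the shGDPD5 libraries (-2.69). In polymerase epsilon the differences were -0.45 for POLE2/POLE, -0.99 for POLE3/POLE and -1.84 for POLE4/POLE. POLE3/POLE was positive in every shCtrl library (0.90, 0.77 and 0.71) and negative in every shGDPD5 library (-0.21, -0.16 and -0.22). There were thus more CPM of POLE3 than of POLE in the first group and fewer in the second. These CPM were not divided by gene length, so the change of sign does not rank the transcripts. Per kilobase of exon, POLE3 lay above POLE in the shCtrl (22.5 against 2.03) and the shGDPD5 libraries (35.7 against 6.41).

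**Figure D4:**
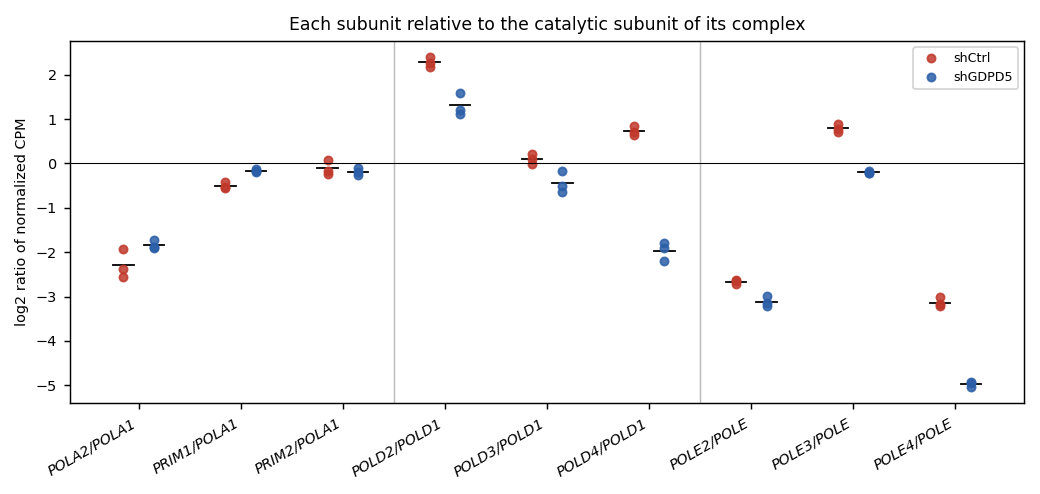
Log2 ratio of normalized CPM of each accessory subunit to the catalytic subunit of its complex (y axis) for 9 ratios (x axis). Each library is a point (shCtrl red, shGDPD5 blue), with group means as black lines. Only PRIM2/POLA1 overlaps between the groups, POLA2/POLA1 and PRIM1/POLA1 lie higher in the shGDPD5 libraries, and the ratios of polymerases delta and epsilon lie lower, POLD4/POLD1 by the most.

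For levels between genes, CPM was divided by the length of all annotated exons in kilobases. In the shCtrl libraries the order was POLE3 (22.5 ± 0.99 CPM per kilobase, SD, n = 3), POLD2 (18.0 ± 2.65), PRIM1 (6.35 ± 0.44), PRIM2 (4.37 ± 0.26), POLA1 (3.49 ± 0.37), POLD1 (2.77 ± 0.30), POLD3 (2.66 ± 0.24), POLE (2.03 ± 0.06), POLE2 (1.79 ± 0.07) and POLA2 (0.795 ± 0.15). Neighbours in this order had separate ranges except POLD1 and POLD3. In the shGDPD5 libraries POLE3 was again first (35.7 ± 1.29 CPM per kilobase, SD, n = 3) and POLA2 last (2.58 ± 0.16), while POLE moved ahead of POLD3. The ranges of POLD1 and POLE, and of POLD3 and POLE2, overlapped there. The level of the highest gene over that of the lowest was 28.3 in the shCtrl and 13.8 in the shGDPD5 libraries, and 6 and 5 of the 10 genes changed rank among the 10 when the longest coding transcript was used as the length. By that length POLD2 (30.9 CPM per kilobase) came before POLE3 (26.7) in the shCtrl libraries, and POLE moved from the 8th to the 5th place, while POLE3 stayed first in the shGDPD5 libraries.

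Most other genes of the replication fork rose as well. Their list, and those of other polymerases and binding partners below, were chosen with earlier results of these data known. The shares therefore describe the listed genes and are no independent test. Of 39 other fork genes (helicase, clamp, clamp loader, single-strand binding, primer removal and fork protection), 37 rose (94.9%) and 2 fell (5.13%) past an adjusted p of 0.05 in edgeR, against 29.7% and 30.1% of all tested genes, and their median log2 fold change was 1.30. The largest rises were those of CDC45, which activates the helicase (log2 2.31), LIG1, the ligase that seals lagging strand fragments (2.01), and CLSPN, a fork protection and checkpoint mediator (1.88). The lower ones were CHTF8, part of the alternative clamp loader that binds polymerase epsilon (-0.36, adjusted p = 4.38e-05 from edgeR), and RNASEH2B, a subunit of ribonuclease H2 (-0.22, adjusted p = 0.0196 from edgeR). The call for RNASEH2B was lost without shCtrl replicate 3 (adjusted p = 0.05002 from edgeR), without shGDPD5 replicate 1 (adjusted p = 0.0715 from edgeR) and when each gene was tested alone (adjusted p = 0.0784). On the other strand CHTF8 overlaps HAS3, which had 1975 to 2111 counts in the shCtrl and 726 to 782 in the shGDPD5 libraries. It also overlaps UTP4 there, with 1659 to 1666 and 1538 to 1739 counts. HAS3 was thus lower as CHTF8 was, and whether its reads have a part in that call was not tested. The summed level of the 39 genes went from 1362 ± 12.6 to 2994 ± 23.8 CPM (SD, n = 3 each), a ratio of 2.20 beside 2.00 for the 10 polymerase genes.

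DNA polymerases outside the nuclear replicative set, with some associated proteins, were counted for comparison. Of 15 listed genes, 14 were tested (DNTT, with at most 1 count, was not), and 6 were higher (42.9%, against 29.7% of all tested genes), 2 lower (14.3%, against 30.1%) and 6 did not pass, with a median log2 fold change of 0.08. The higher ones by the naming rule were POLQ, the polymerase of theta-mediated end joining (1.41, adjusted p = 9.37e-09 from edgeR), POLH, which copies past ultraviolet damage (1.18, adjusted p = 4.16e-09 from edgeR), and POLG, the mitochondrial polymerase (0.45, adjusted p = 0.000147 from edgeR). The lower ones were POLB, the base excision repair polymerase (-0.32, adjusted p = 0.00152 from edgeR), and POLI, a translesion polymerase (-0.29, adjusted p = 0.00186 from edgeR). On the other strand, POLH overlaps GTPBP2, which had 2927 to 3433 counts in the shCtrl and 1074 to 1184 in the shGDPD5 libraries. POLG overlaps FANCI, also on the other strand, with 932 to 1007 and 3044 to 3314 counts. GTPBP2 thus lay the other way from POLH, while FANCI was higher as POLG was. Outside the rule, and named after their values were seen, POLN (1.40, with 7 to 30 counts per library), REV3L (0.28) and MAD2L2 (0.31) were also higher. POLN shares its strand with HAUS3, which was higher too, with 442 to 484 counts in the shCtrl and 578 to 644 in the shGDPD5 libraries. Whether reads of GTPBP2, FANCI and HAUS3 have a part in the values of POLH, POLG and POLN was not tested.

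Proteins that bind the replicative polymerases counted 3 of 8 higher (37.5%), 2 lower (25.0%) and 3 not passing, near the 29.7% higher and 30.1% lower of all tested genes, with a median log2 fold change of 0.08. POLDIP2, which binds polymerase delta, rose by 0.37 (adjusted p = 0.000337 from edgeR). Of the partners of POLE3 in the chromatin accessibility complexes, CHRAC1 rose by 0.30 (adjusted p = 0.00139 from edgeR) and BAZ1A by 0.38 (adjusted p = 0.000182 from edgeR), while the ATPase gene SMARCA5 had -0.03 (adjusted p = 0.718 from edgeR). The CST complex, which brings polymerase alpha to telomere ends for fill-in synthesis, did not follow polymerase alpha. Its subunit STN1 went from 87.8, 81.9 and 84.8 CPM in the shCtrl to 38.3, 41.8 and 44.7 CPM in the shGDPD5 libraries. This was a log2 fold change of -1.03 (standard error 0.06, 95% interval -1.16 to -0.89, adjusted p = 3.46e-08 from edgeR), beside -0.23 for CTC1 (adjusted p = 0.00428 from edgeR) and 0.03 for TEN1 (adjusted p = 0.879 from edgeR). POLDIP3 had 0.13 (adjusted p = 0.0636 from edgeR).

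**Figure D5:**
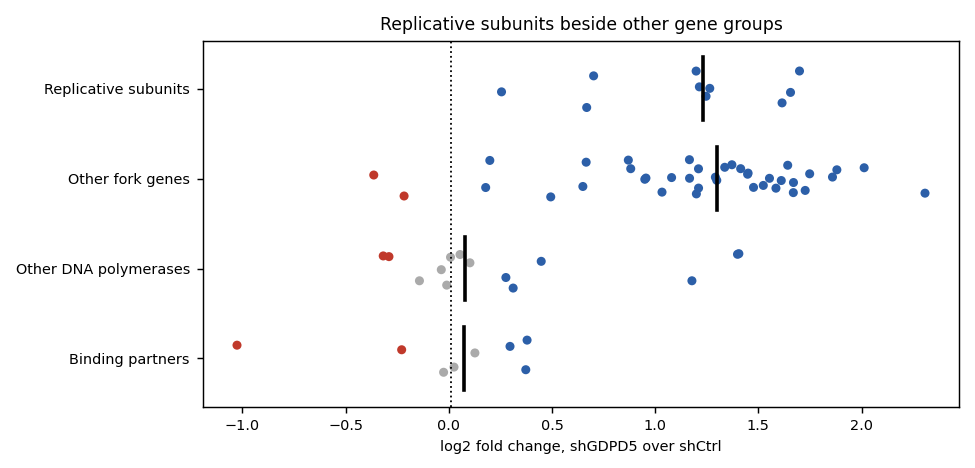
Log2 fold change, shGDPD5 over shCtrl (x axis), of the 10 replicative subunits, 39 other fork genes, 14 other DNA polymerases and associated proteins, and 8 binding partners (y axis). Genes that passed in edgeR are blue (higher) or red (lower) and the others grey, black lines are medians, and the dotted line is the median of all tested genes. The medians of the first 2 groups lie at 1.23 and 1.30 and those of the last 2 at 0.08.

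To find genes whose pattern over the 6 libraries was nearest to that of the polymerases, the median of the 10 mean-centred log2 CPM profiles was compared with every tested gene with a symbol and a mean of at least 10 CPM, by root mean square distance on the log2 scale. The 5 nearest were NASP, a histone chaperone (0.0353), CBX1, a heterochromatin protein (0.0405), GINS4, a helicase subunit (0.0408), FANCM, a fork remodelling translocase (0.0422), and HAUS5, a subunit of the augmin complex (0.0454). Their log2 fold changes were 1.24, 1.19, 1.21, 1.17 and 1.24. Among the 10 genes themselves, which set this median, POLE2 (0.0688), PRIM2 (0.0717) and POLA1 (0.0896) were nearest to it and POLD2 (0.502) was farthest. With groups this far apart, the distance mainly ranks genes by the size of their fold change.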

How the data were processed

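Total RNA of 6 HCT116 libraries was prepared, per the labels, using SMARTER mRNA-Seq reagents. The authors supplied estimated counts for each gene in 1 deposited table. The aligner, counter, strand use and genome build behind them are not given in the sources read. Columns were matched to samples by label. Estimated counts were rounded (change at most 0.5), and 370 rows named only during processing held 0.226% of counts. edgeR 4.0.16 in R 4.3.3 gave the low-count filter (minimum count 10), TMM normalization, the quasi-likelihood test and Benjamini-Hochberg adjustment over 16755 genes, with standard errors from the F statistic. The common biological coefficient of variation was 0.0555, and totals of 16715447 to 18510670 limit precision for low genes. Normalized CPM used TMM-scaled totals, and ratios a prior count of 0.5. The fit was tested on simulated counts.

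Members and lists were chosen with earlier results of these data known. Named were all members, POLD4, POLE4, GDPD5, per comparison list the 3 higher and 3 lower called genes of largest change with a mean of at least 1 CPM, and the 5 genes nearest in pattern. Positions come from GENCODE 29 and promoters from RefSeq, joined by gene and not by the build of the counts. Alternatives were DESeq2 1.42.0, limma-voom (limma 3.58.1), a test of each gene alone on log2(CPM + 1), scaling by RLE or the upper quartile, other filters, thresholds and prior counts, no mitochondrial genes, a replicate block and leaving out each library.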

Additional observations from a re-analysis of the deposited data

How the results depend on the processing

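The count of 10 higher subunits was 7 with an added log2 fold change of at least 1, whether the p was adjusted or not, and 9 with an unadjusted p and a fold over 1.5, a setting chosen after seeing the data. The log2 fold changes of POLA1, POLA2, PRIM1, PRIM2, POLD1, POLD3, POLE, POLE2, POLE3 and POLD4 passed with their sign under 15 alternatives. POLD2 did not pass under 2 of the 15, when each gene was tested alone on log2(CPM + 1), without shared variance (0.26, adjusted p = 0.169) and without shGDPD5 replicate 3 (0.22). Lower fork genes counted 1 in place of 2 with that test, RNASEH2B being lost, and 1 to 2 when single libraries were left out (1 without shCtrl replicate 3 or shGDPD5 replicate 1). Higher fork genes counted 36 in place of 37 with DESeq2, that test or no filter, and 36 or 37 when single libraries were left out. Higher genes in the list of other DNA polymerases counted 4 in place of 6 with that test. They counted 5 with at least 10 counts in every library or without shCtrl replicate 2. Higher binding partners counted 4 in place of 3 with upper quartile scaling. The ratio difference PRIM2/POLA1 ran from -0.13 without shCtrl replicate 1 to 0.024 without shCtrl replicate 2, against -0.07 with all libraries. The cause of these shifts was not tested. Libraries with the same number did not deviate together (correlations -0.07, -0.0517 and -0.041), and none correlated best with its own number. The labels do not say whether such libraries were handled together, and these values cannot show it. With the replicate block all 10 subunits were higher (median log2 fold change 1.23, GDPD5 -0.87), 4792 and 4853 genes were called higher and lower, and the counts of calls in the gene lists were the same. The share of calls that were higher ran from 48.1% to 51.4% over the scalings, filters and tests, and the median over all genes from -0.0034 to 0.0257. Depth limits the precision for low transcripts such as POLE4 (59 to 73 counts) and POLN (7 to 30 counts).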
